A study of Mus musculus with 38 samples.

Results

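Transcripts of the mitochondrial genome were examined in bulk RNA-seq of the medial prefrontal cortex of mice. All genes whose mouse symbol begins with mt- were taken, 37 of the 57010 gene identifiers in the deposited count table. They comprise 13 protein-coding genes, 2 ribosomal RNA (rRNA) genes and 22 transfer RNA (tRNA) genes. The series holds 38 libraries, labelled as control mice (SSTCre) or mutant mice (SSTCre:γ2f/f), either non-stressed (NS) or exposed to chronic variable stress (CVS). SSTCre drives Cre recombinase from the somatostatin locus, so recombination of floxed alleles is confined to somatostatin cells, a small class of cortical interneurons, and controls carry the Cre allele too. Among males (titles beginning with Y), 5 controls and 3 mutants were unstressed and 6 controls and 4 mutants stressed. Females (titles beginning with F) had 5 libraries in each of these groups. CVS lasted 21 days, and tissue was taken 24 hours after the last stressor from sections 1 mm thick. The labels give neither the age nor the background strain of the mice. Sex and series go together, so a difference of level between males and females cannot be told apart from a difference between the Y and F series, and shares of counts are described within each of them.

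The mitochondrial genome is a small circle that is transcribed from both strands into long precursors. The tRNAs punctuate the precursors, and their excision by RNase P and ELAC2 frees the mRNAs and rRNAs between them. Most genes are read on the heavy-strand transcript, while mt-Nd6 and a minority of the tRNAs come from the light-strand one. The 13 proteins are core subunits of the respiratory chain: 7 subunits of complex I (mt-Nd1 to mt-Nd6 and mt-Nd4l), cytochrome b of complex III (mt-Cytb), 3 subunits of cytochrome c oxidase (mt-Co1 to mt-Co3) and 2 of ATP synthase (mt-Atp6 and mt-Atp8). In cortex, where synaptic transmission depends on oxidative phosphorylation, these transcripts are among the most abundant RNAs of the cell. Copies of mitochondrial sequence have also been inserted into the nuclear chromosomes, where they are annotated as pseudogenes.

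Each library began with 400 ng of RNA, from which messenger RNA was selected, and was sequenced as 150-bp pairs. Totals ran from 17644294 to 27509737 gene counts. Levels are given as CPM, counts scaled to a common library size (by TMM within each sex), and as CPM per kb of transcript where genes are compared with each other. Sst, the marker of the targeted cells, was 0.24 ± 0.04 (log2, SE) higher in male mutants than in male controls (edgeR, adjusted p = 0.0137). The 6 markers of striatum summed to 114 to 148 CPM. Markers of the olfactory bulb summed to 32.8 to 43.1 CPM in 3 male libraries (control CVS replicate 1, mutant NS replicates 2 and 3), above every other library. The library labelled male mutant CVS replicate 1 had Pttg1 at 19.6 CPM, within the range of male controls, while the other mutants of either sex had at most 10.8 CPM. Its Ccng1 was at 96.1 CPM, within the 86.7 to 102 CPM of its group and above male controls, which reached 81.5 CPM. Results for males were therefore also computed without those 3 libraries and without each library in turn. Nothing in the labels says more of the source of the replicates than that they are separate mice, and replicates differed beyond sampling noise in all 74 pairs. In bulk tissue, fewer mitochondria, fewer cells rich in them and less RNA per mitochondrion cannot be told apart.

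The nuclear copies matter for what the counts of these genes can show, and so 4 stretches are printed. They are read from GENCODE transcripts of the GRCm38 build, while the counts were made on GRCm39. Each mitochondrial gene stands above its closest annotated copy, and bases that differ are in capitals. The first pair, from bases 633 to 707 of mt-Nd2, is a diverged copy, with the differences C638T, A668G and C681T (gene base, position from the first base of the gene, pseudogene base). The second covers bases 1054 to 1128 of mt-Co1, where the copy begins, with T1056A, C1057T, A1059G, A1060G, C1062A and A1066T, and no mismatch over the rest of its 492 aligned bases. The last pairs open mt-Co2 and mt-Nd3, and there the copies are the same apart from T3C in mt-Nd3.
mt-Nd2: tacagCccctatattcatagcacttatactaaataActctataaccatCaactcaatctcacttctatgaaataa
Gm13339: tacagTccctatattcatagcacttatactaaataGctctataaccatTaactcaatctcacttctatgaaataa
mt-Co1: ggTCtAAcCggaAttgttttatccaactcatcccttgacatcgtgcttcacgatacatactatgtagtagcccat
Gm29216: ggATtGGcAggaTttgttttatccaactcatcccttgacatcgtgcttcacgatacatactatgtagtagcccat
mt-Co2: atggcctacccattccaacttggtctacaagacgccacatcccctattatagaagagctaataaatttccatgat
Gm28661: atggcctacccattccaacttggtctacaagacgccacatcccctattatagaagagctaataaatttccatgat
mt-Nd3: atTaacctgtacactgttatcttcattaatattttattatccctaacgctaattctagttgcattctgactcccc
Gm28438: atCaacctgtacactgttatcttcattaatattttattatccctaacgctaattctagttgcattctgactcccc

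Over the whole alignment, Gm28661 matched mt-Co2 at 681 of 681 bases, Gm10925 matched mt-Atp6 at 678 of 678, and Gm28437 matched mt-Co3 at 783 of 783. Gm10222 matched mt-Nd4l at 294 of 294 bases, and Gm28439 matched the first part of mt-Nd4 at 876 of 876. Gm13339 had 17 mismatches to mt-Nd2 over 510 bases, an identity of 96.7%. Cut into windows of 50 bases, mt-Co2, mt-Atp6, mt-Co3, mt-Nd3 and mt-Nd4l had between 98.0% and 100% of their windows in another annotated transcript. The share was 62.2% in mt-Nd4, 51.1% in mt-Co1, 8.19% in mt-Nd2, 7.61% in mt-Nd5 and 1.04% in mt-Rnr2, and 0% in the other protein-coding and rRNA genes, mt-Atp8 included. A read from a shared window matches both places equally well. How the authors' counting treated such reads is not given in the sources used here.

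Counts split along this line only in part, since mt-Atp8, with 0% shared windows, was the lowest protein-coding gene. Per kb, mt-Co1 was the most abundant member at 13072 ± 958 CPM per kb (SD, n = 18) in males and 8019 ± 551 (SD, n = 20) in females. It was followed by mt-Cytb at 7434 ± 458 and mt-Nd1 at 6939.5 ± 474 CPM per kb in males, whose ranges over libraries overlapped. mt-Nd2 followed at 4369.6 ± 326, mt-Nd5 at 3493 ± 194 and mt-Nd4 at 3141 ± 219 CPM per kb. Females had the same order of the 6 mRNAs, with 4508 ± 329 for mt-Cytb, 4188 ± 311 for mt-Nd1, 2524 ± 201 for mt-Nd2, 1907 ± 183 for mt-Nd5 and 1723 ± 112 CPM per kb for mt-Nd4. In both sexes mt-Nd5 and mt-Nd4 overlapped.

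The 6 protein-coding genes that lie between mt-Co1 and mt-Nd4 stood far below. mt-Nd3 was at 60.3 ± 8.61 CPM per kb in males (SD, n = 18), mt-Co2 at 22.9 ± 2.60, mt-Atp6 at 21.5 ± 2.73, mt-Co3 at 19.4 ± 1.90, mt-Nd4l at 14.7 ± 2.72 and mt-Atp8 at 1.86 ± 0.519. Their raw counts had male medians of 423 for mt-Nd3, 317 for mt-Co2, 302 for mt-Atp6, 308 for mt-Co3, 89.5 for mt-Nd4l and 8 for mt-Atp8, against 90093 for mt-Nd4. All are read from the same heavy-strand precursor as their neighbours. The matching pseudogenes of mt-Co2, mt-Atp6, mt-Co3 and mt-Nd4l had counts of the same order as the genes, with male medians of 397 for Gm28661, 435 for Gm10925, 329 for Gm28437 and 65.5 for Gm10222. Gm28438, which differs from mt-Nd3 at 1 base, had a median of 31, far below that of mt-Nd3. Gm28439, the copy of the first part of mt-Nd4, had 196 and Gm29216, the copy within mt-Co1, had 247. Diverged Gm13339, whose bases differ from mt-Nd2 throughout, had a median of 2. For 5 of the 6 genes the low count goes with near-complete identity to a copy, and mt-Atp8, which has no annotated copy among the transcripts, was low as well. Whether the treatment of shared reads sets these levels was not tested, and values of the 6 genes are given as uncertain, as are those of the pseudogenes. In mt-Nd4 and mt-Co1, 62.2% and 51.1% of the windows are shared. Whether that treatment also affects their level, their rank per kb or ratios to them was not tested.

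**Figure D1:**
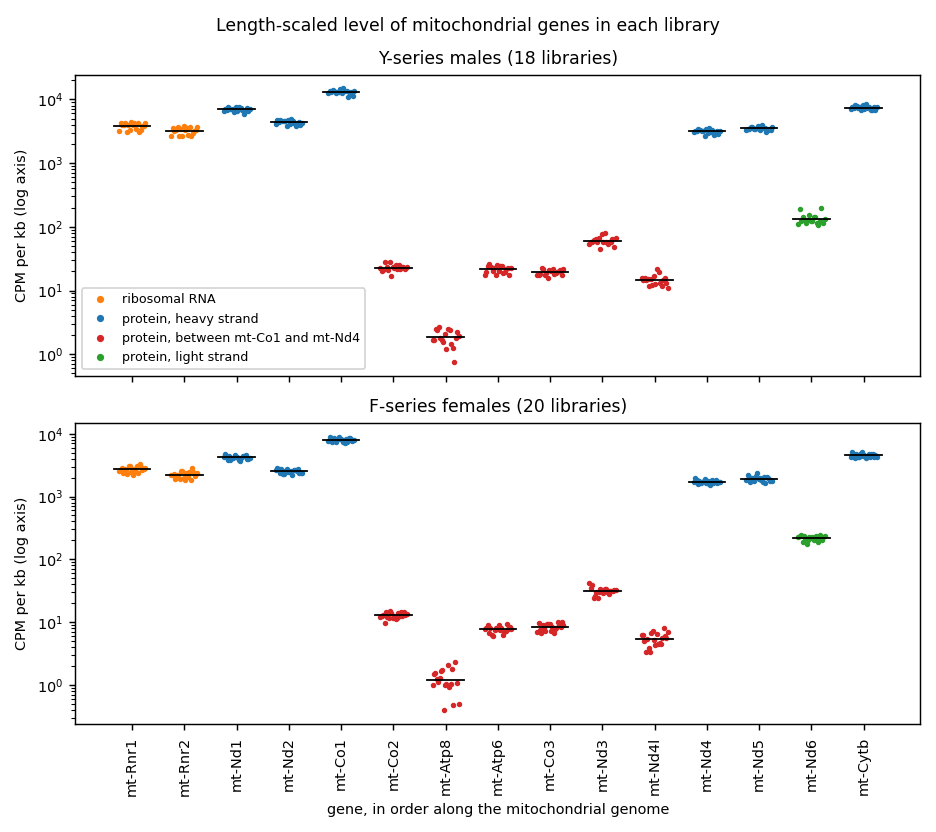
Level of each mitochondrial protein-coding and rRNA gene in CPM per kb of transcript (log axis) in every library (points; bars, mean), with genes in their order along the mitochondrial genome, males above and females below. The 6 protein-coding genes between mt-Co1 and mt-Nd4 have male means of 1.86 to 60.3 CPM per kb, against 13072 for mt-Co1 and 3141 for mt-Nd4, and mt-Nd6, on the light strand, lies between at 134.

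mt-Nd6, the light-strand mRNA, has no annotated copy, and its level was 134 ± 25.3 CPM per kb in males and 219 ± 20.8 in females. Its counts ran from 1050 to 2233 in males and from 1798 to 3244 in females. The rRNAs, mt-Rnr1 of the small and mt-Rnr2 of the large mitochondrial ribosomal subunit, were at 3809 ± 456 and 3211 ± 397 CPM per kb in males and at 2703 ± 292 and 2215 ± 268 in females. Their ranges overlapped each other in both sexes. Selection of messenger RNA was part of the library preparation. How far that selection sets the levels of the rRNAs, of the tRNAs or of mt-Nd6 was not tested.

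The tRNAs, 59 to 75 bases long, gave few counts. Whether these counts come from mature tRNAs or from longer precursors was not tested. Differences given below for tRNA genes are therefore differences of counts, not of mature tRNA. mt-Tw was the most counted, with a median of 327 counts in males and 199.5 in females. In males it was followed by mt-Tl1 with 178, mt-Tm with 104, mt-Tp with 64.5 and mt-Tq, on the light strand, with 35.5. In females mt-Tq had 72, mt-Tl1 71, mt-Tp 58.5 and mt-Tm 57.5. mt-Tf and mt-Tk had no count in any of the 38 libraries. The other 15 tRNAs had medians of 23 counts or fewer in each sex. Of the 22 tRNAs, 10 passed the filter on low counts in males and 8 in females. All 13 mRNAs passed in males and 12 in females, where mt-Atp8 did not, and both rRNAs passed in each sex.

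Within a sex, the share of all counts that fell on mitochondrial genes differed little between groups. The 13 mRNAs took 4.88, 5.11, 5.05, 5.49 and 5.32% in male control NS mice. In male control CVS mice the share was between 4.73% and 5.68%, with a median of 5.08%. It was 5.18, 5.11 and 4.42% in male mutant NS mice and 4.82, 5.12, 4.57 and 5.23% in male mutant CVS mice. The lowest male library was mutant NS replicate 3, one of those with high olfactory bulb markers, and the groups overlapped. In females the shares were 2.95, 3.39, 3.14, 2.74 and 3.20% in control NS, and 2.86, 2.75, 3.02, 3.39 and 2.98% in control CVS mice. Mutants had 3.14, 2.87, 2.74, 3.18 and 2.88% without stress and 3.18, 3.27, 2.82, 2.93 and 2.89% with it. All 4 female groups overlapped.

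The 2 rRNAs took a share of 0.711% to 1.02% of counts in males and 0.502% to 0.758% in females, and the 22 tRNAs at most 0.0048%. 1 gene identifier without a symbol, the most abundant of the table, took 4.21% to 7.83% of the counts of female libraries and 0.045% to 0.406% of those of males. Leaving it out of the denominator gave a mean mRNA share of 3.20% in females in place of 3.02%, and left the male mean at 5.08% against 5.07%. Among female controls that identifier took 4.94% to 5.49% of counts without stress and 4.85% to 7.83% with it. Female mutants had 4.21% to 5.81% and 4.95% to 6.85%, so the denominator was uneven between stress groups. Without the identifier, the mRNA share was 2.90% to 3.57% and 2.99% to 3.59% in these controls. It was 2.88% to 3.33% and 3.03% to 3.44% in the mutants, and the groups still overlapped.

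**Figure D2:**
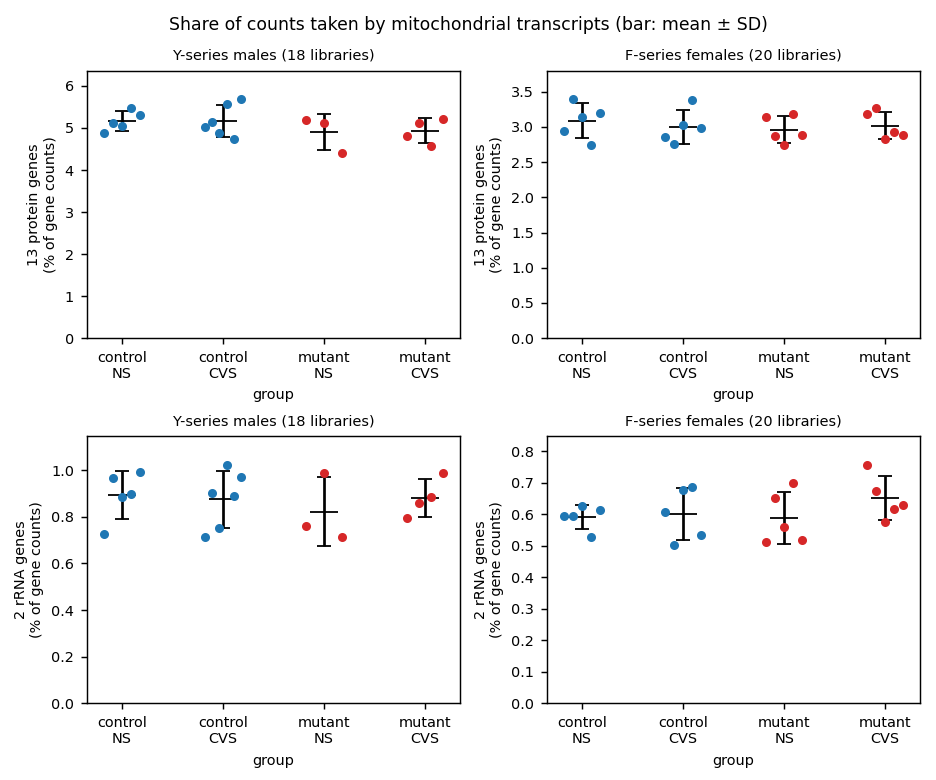
Share of all gene counts in percent that fell on the 13 protein-coding (upper) and 2 rRNA (lower) mitochondrial genes, by group, in males (left) and females (right); points are libraries (blue, control; red, mutant) and bars the mean ± SD. Groups overlap in each panel: the mRNA share lies between 4.42% and 5.68% in males and between 2.74% and 3.39% in females.

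Within a group, the abundant mRNAs moved up and down together from library to library. The SD between replicates of log2 CPM was 0.087 to 0.115 in males for the 6 abundant heavy-strand mRNAs (mt-Nd1, mt-Nd2, mt-Co1, mt-Nd4, mt-Nd5 and mt-Cytb). Taken relative to the summed counts of the other mitochondrial mRNAs of the same library, it was 0.034 to 0.054. In females it was 0.094 to 0.137 for CPM and 0.031 to 0.071 for the relative level. Counting error alone would give at most 0.0065. mt-Co1 took 38.4% to 41.6% of the mitochondrial mRNA counts in males and 39.7% to 42.3% in females.

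The rRNAs varied more, and apart from the mRNAs. SD of mt-Rnr1 and mt-Rnr2 was 0.197 and 0.204 for CPM in males and still 0.147 and 0.157 relative to the mRNAs. In females it was 0.156 and 0.173, and 0.125 and 0.145 relative to the mRNAs. Their ratio to each other was far steadier, with an SD of log2 mt-Rnr2 over mt-Rnr1 of 0.034 in males and 0.039 in females. The 2 rRNAs, neighbours at the start of the heavy-strand transcript, thus kept their proportion while their level against the mRNAs shifted between mice of a group. The spread of mt-Nd6 was not compared between the sexes by a test: its SD was 0.265 for CPM and 0.241 relative to the other mRNAs in males, and 0.133 and 0.095 in females. Of the genes with copies, mt-Nd4l had the widest spread, 0.273 in males and 0.350 in females, where counting error accounted for 0.153 and 0.256. The tRNAs counted in every library at 10 or more had SDs of 0.206 to 0.595 in males and 0.215 to 0.470 in females, with counting errors between 0.080 and 0.323.

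**Figure D3:**
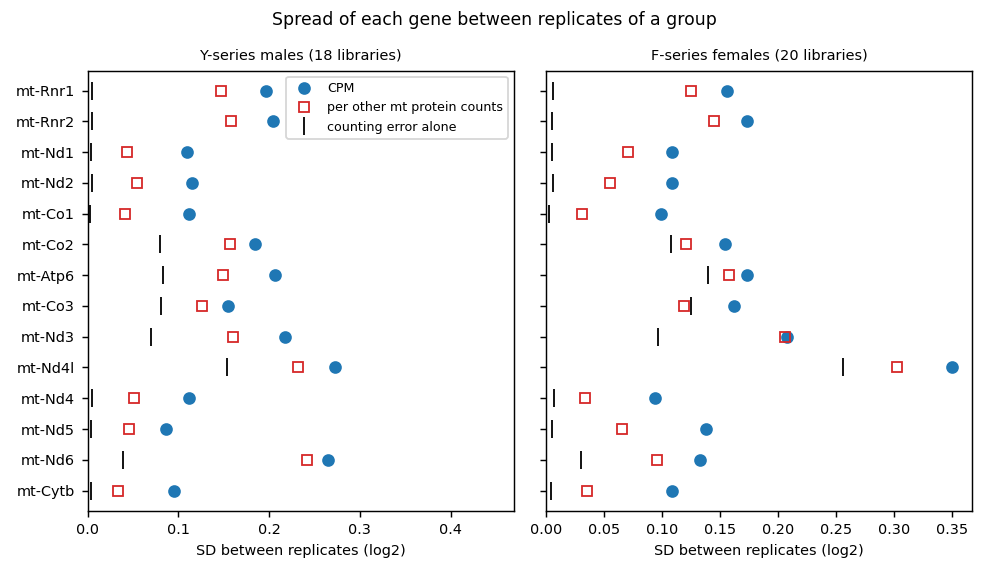
SD between replicates of a group on the log2 scale for each mitochondrial gene (mt-Atp8 left out), in males (left) and females (right): circles, CPM; squares, counts relative to the other mitochondrial mRNAs of the library; ticks, what counting error alone would give. The 6 abundant heavy-strand mRNAs move from about 0.1 to 0.031 to 0.071 once set relative to each other, while the rRNAs stay above 0.12.

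The design asks whether chronic stress, the mutation in somatostatin cells, or both, alter expression in this region. Across 17 comparisons (stress in each genotype, genotype with and without stress, their interaction and their averages in each sex, and the differences between the sexes), none of the mitochondrial genes passed an adjusted p of 0.05 with edgeR's quasi-likelihood test. Of 404 tests on them, 12 had an unadjusted p under 0.05, which is 2.97%, and DESeq2 and limma voom called none. Over all genes tested, 3.23% to 12.6% passed the unadjusted threshold, depending on the comparison. Only 0% to 0.584% passed the adjusted one, so few calls would be found among this many genes at the general rate. The smallest adjusted p was 0.195. For the 6 abundant mRNAs the 95% intervals of the 8 comparisons of 2 groups all lay between −17.97% and 16.89% relative to the reference group. Each interval is for 1 gene in 1 comparison, so the range is not a joint bound on change. For the interactions the intervals were wider, from −13.85% to 18.38% in males and from −15.53% to 24.77% in females. For the sex difference of the interaction they lay between −18.17% and 30.81%. Levels of the main genes by library follow, with mt-Co1 and mt-Cytb for the heavy-strand mRNAs, mt-Nd6 as the light-strand one, and both rRNAs.

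mt-Co1, the catalytic subunit of cytochrome c oxidase, was at 19286, 20785, 20257, 21993 and 21225 CPM in the male control NS libraries, and at 19116 to 23082 CPM with a median of 20231 under CVS. Male mutants had 20771, 20533 and 16970.0 CPM without stress and 18703, 20504, 17616 and 20787 with it. Groups overlapped, and the lowest library was mutant NS replicate 3. Female controls had 11851, 13814, 12612, 11230.0 and 13132 CPM without stress and 11818, 11500.0, 12758, 13936 and 12822 with it. Female mutants had 12491, 11406, 11109, 12826 and 11357 and 13326, 13328, 11951, 12326 and 12455 CPM. The 4 female groups overlapped as well. Fitted log2 differences for mt-Co1 ran from −0.097 to 0.099 over the 8 comparisons of 2 groups.

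mt-Cytb, the core of complex III and free of annotated copies, was at 8047, 8775, 8483, 9305 and 8981 CPM in male control NS mice, and at 7912 to 9505 CPM with a median of 8444 under CVS. Male mutants had 8328, 8719 and 7649 CPM without and 7888, 8532, 7852 and 8752 with stress. It followed mt-Co1, with the same mutant library lowest. In females the controls had 4874, 5827, 5382, 4660.1 and 5433 CPM without stress and 4913, 4897, 5339, 5939 and 4970.4 with it, and the mutants 5223, 4749, 4834, 5470.5 and 4861 and 5521, 5484, 4800.5, 5156 and 4906. Again no group stood clear of another.

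mt-Rnr1 was at 3026, 4118, 3845, 3806 and 4128 CPM in male control NS mice, and at 2939 to 4280.0 CPM with a median of 3761 under CVS. The male mutants had 3241, 4072 and 2889 CPM without stress and 3194, 3605, 3646 and 4054 with it. Each male group spanned most of the male range. Female controls had 2477, 2547, 2677, 2291 and 2648 CPM without stress and 2496, 2203, 2962, 2921 and 2348 with it. Female mutants had 2129, 2641, 2334, 2968 and 2246 CPM without stress and 3152, 2814, 2502, 2617 and 2719 with it. The unstressed female controls were the tightest of the 4 female groups, and all 4 overlapped.

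mt-Rnr2 was at 4134, 5689.7, 5056, 5230.4 and 5770.2 CPM in male control NS mice, and at 4152 to 6004 CPM with a median of 5272 under CVS. In male mutants it was at 4356, 5855 and 4144 CPM without stress and 4649, 5027, 5219 and 5792 with it. Male control CVS replicate 4 was the highest male library for both rRNAs. Female controls had 3459.6, 3431, 3588, 2991 and 3472 CPM without stress and 3539.6, 2965, 4000.5, 4003 and 3085 with it. Female mutants had 2861, 3743, 3184, 3947 and 2922 CPM without stress and 4456, 3865, 3346, 3594 and 3703 with it. Among stressed female mutants, replicate 1 was the highest female library, and the group overlapped each of the others. Intervals were wider than for the mRNAs: the widest, for stress in male mutants, ran from −14.05% to 35.9% for mt-Rnr2.

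mt-Nd6 was at 56.5, 100.3, 63.6, 74.8 and 66.03 CPM in male control NS mice, and at 60.1 to 80.6 CPM with a median of 65.1 under CVS. In male mutants it was at 73.7, 58.6 and 54.6 CPM without stress and 64.8, 103, 60.3 and 69.3 with it. The highest library was at 100.3 CPM in control NS, 80.6 CPM in control CVS and 103 CPM in mutant CVS mice. In control CVS the next was at 74.6 CPM. None lay far enough from its group in CPM to be among those flagged below, and the groups overlapped. Female controls had 115, 123, 125, 98.2 and 120.4 CPM without stress and 115, 90.3, 105, 119 and 111 with it. Female mutants had 119.5, 104, 111, 123 and 98.99 CPM without stress and 119, 128, 107, 119 and 123 with it. No female library stood apart, and stressed mutants reached the highest values and stressed controls the lowest.

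In male controls, CVS moved no mitochondrial gene past the threshold, and no member had an unadjusted p under 0.05. Over all 17212 genes tested in males 0.0116% passed the adjusted threshold and 7.39% the unadjusted one. The mRNAs had a median log2 difference (CVS minus NS) of −0.010 with 4 of 13 positive, beside a median of 0.00026 over all genes. The rRNAs were at −0.048 ± 0.12 (SE) for mt-Rnr1 and −0.018 ± 0.12 for mt-Rnr2. In male mutants, where 0% of all genes passed the adjusted and 3.38% the unadjusted threshold, again no member had an unadjusted p under 0.05. There the median of the mRNAs was 0.020 with 10 of 13 positive, and mt-Nd6 was at 0.26 ± 0.21 (adjusted p = 0.9997, edgeR). The mutant CVS library highest in mt-Nd6 was replicate 2. Averaged over genotypes, stress gave a median of 0.00041 for the mRNAs, with 0% of all genes past the adjusted and 4.87% past the unadjusted threshold, and none of the members past either.

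Male mutants had slightly lower mitochondrial mRNA values than male controls, within the spread between mice. Without stress, the median log2 difference (mutant minus control) of the 13 mRNAs was −0.083 and each of the 13 was negative, beside a median of −0.0015 over all genes. The values are not independent, since the mRNAs of a library move together. mt-Co1 was at −0.092 ± 0.075 (edgeR, adjusted p = 0.943) and mt-Cytb at −0.083 ± 0.061 (edgeR, adjusted p = 0.929). Leaving out each library in turn gave medians between −0.14 and −0.032. Without the 3 libraries with high olfactory bulb markers the median was 0.0036, with 1 mutant NS library left. Of the mutant NS libraries with high markers, replicate 2 had mt-Co1 at 20533 and mt-Cytb at 8719 CPM, within the range of the control NS libraries, and replicate 3 was below that range for both.

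1 tRNA, mt-Tm, had an unadjusted p under 0.05 here, where 6.13% of all genes did and 0.0174% passed the adjusted threshold. mt-Tm encodes the tRNA for methionine, which serves both initiation and elongation in mitochondria. Whether mt-Tm counts reflect the mature tRNA was not tested. The levels of mt-Tm were 4.96, 6.07, 4.70, 4.74 and 6.27 CPM in control NS mice, and 3.04, 3.91 and 2.91 in mutant NS mice. The 2 groups did not overlap, and the fitted log2 difference was −0.70 ± 0.24 (edgeR, unadjusted p = 0.00851 and adjusted p = 0.701). mt-Tm was picked by its p-value, and the share of all genes without overlap between these groups is not given. Mutant NS replicates 2 and 3, at 3.91 and 2.91 CPM, are libraries with high olfactory bulb markers, and replicate 1 was at 3.04. Under stress, mt-Tm was at 3.21 to 7.64 CPM with a median of 5.15 in controls and at 4.10, 5.49, 2.57 and 3.25 CPM in mutants, which overlapped (−0.42 ± 0.21, unadjusted p = 0.0573, edgeR).

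With stress, the mRNA median of mutants against controls was −0.055 with 3 of 13 positive in males, and no member had an unadjusted p under 0.05, against 7.62% of all genes. The adjusted threshold was passed by 0.0523% of genes. Averaged over stress, the median was −0.072 with 1 of 13 positive, and the rRNAs were at −0.084 ± 0.095 for mt-Rnr1 and −0.048 ± 0.098 for mt-Rnr2. mt-Tm then had the smallest adjusted p of all member tests, 0.195, at −0.56 ± 0.16 (edgeR, unadjusted p = 0.00197), where 8.84% of all genes passed the unadjusted and 0.116% the adjusted threshold. Without a filter on low counts, which tests more genes, its adjusted p was 0.0194, and with DESeq2 it was 0.0546. Its median of 104 counts per male library puts it among the less precise members. In the interaction of stress and genotype no male member had an unadjusted p under 0.05, where 4.18% of all genes did and 0% passed the adjusted threshold. The interaction median of the mRNAs was 0.031.

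**Figure D4:**
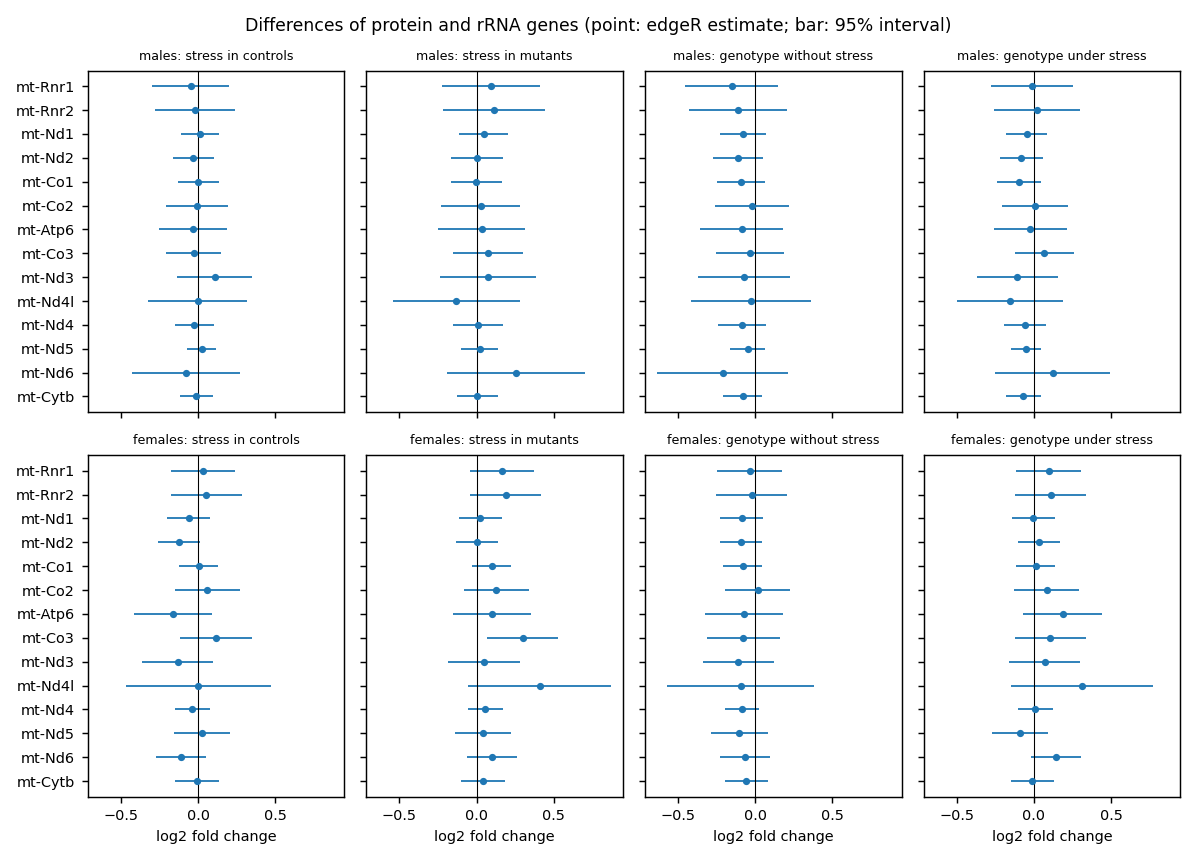
Fitted log2 fold change (points) with its 95% interval (bars) for each mitochondrial rRNA and mRNA (mt-Atp8 left out) in the 4 comparisons of 2 groups in males (upper row) and females (lower row). Stress is CVS minus NS and genotype is mutant minus control; 1 interval of the 112, that of mt-Co3 for stress in female mutants, does not reach 0, and none of the genes passed the adjusted threshold.

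Female controls under CVS had a median mRNA difference of −0.022 against unstressed controls, with 5 of 12 positive, beside 0.000073 over all 16435 genes tested in females. 2 tRNAs had an unadjusted p under 0.05, a level passed by 8.72% of all genes, while 0% passed the adjusted threshold. With 1 library left out this count ran from 0 to 7, being 0 without control NS replicate 1, 2 or 3 or control CVS replicate 2, and 7 without control NS replicate 4. mt-Tm was at −0.46 ± 0.21 and the tryptophan tRNA mt-Tw at −0.30 ± 0.14 (edgeR, adjusted p = 0.532 and 0.534). mt-Tm levels were 3.26, 3.60, 4.12, 2.16 and 2.74 CPM without stress and 2.74, 1.49, 1.86, 2.85 and 2.54 with it, and those of mt-Tw were 11.4, 10.8, 13.6, 7.84 and 10.02 and 9.27, 6.34, 10.2, 9.46 and 8.23 CPM. Both pairs of groups overlapped.

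Stressed female mutants had slightly higher mitochondrial values than unstressed female mutants in each class, within the spread. The median was 0.077 for the mRNAs with 12 of 12 positive, 0.18 for the 2 rRNAs and 0.13 for the 8 tRNAs tested, all of them positive, beside 0.00085 over all genes. Here too the values come from the same libraries and are not independent. mt-Rnr2 was at 0.19 ± 0.11 and mt-Co1 at 0.099 ± 0.060 (edgeR, adjusted p = 0.709 and 0.728). 1 gene had an unadjusted p under 0.05, where 7.91% of all genes did and 0% passed the adjusted threshold: mt-Co3, the third subunit of cytochrome c oxidase. Its levels were 5.56, 6.44, 5.22, 6.04 and 6.33 CPM in mutant NS and 7.78, 7.04, 6.53, 7.83 and 7.12 in mutant CVS mice. These did not overlap, but mt-Co3 was picked by its p-value, and the share of all genes without overlap is not given. The difference was 0.30 ± 0.11 (edgeR, unadjusted p = 0.0140, adjusted p = 0.502). mt-Co3 is among the genes with an identical nuclear copy, and female libraries held counts of it from 104 to 214. Averaged over genotypes, stress gave mt-Co3 a difference of 0.21 ± 0.081 (edgeR, adjusted p = 0.276) and was the only comparison with stress averaged in which a member had an unadjusted p under 0.05. There 12.6% of all genes passed the unadjusted and 0.207% the adjusted threshold, and the mRNA median was 0.013.

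Female mutants without stress had a median mRNA difference of −0.084 against controls, with 1 of 12 positive, beside 0.0018 over all genes. mt-Co1 was at −0.082 ± 0.060 and mt-Cytb at −0.058 ± 0.066 (edgeR, adjusted p = 0.808 and 0.895). The light-strand tRNAs for proline and glutamine, mt-Tp and mt-Tq, were the members with an unadjusted p under 0.05, at −0.42 ± 0.17 and −0.35 ± 0.15 (edgeR, adjusted p = 0.484 and 0.530). Of all genes 8.07% passed the unadjusted and 0.128% the adjusted threshold. The count of members ran from 0 without mutant NS replicate 5 to 6 without control NS replicate 4. mt-Tp levels were 2.53, 3.35, 3.75, 2.97 and 3.33 CPM in controls and 1.76, 2.74, 2.49, 3.26 and 1.73 in mutants, which overlapped. mt-Tq levels were 4.29, 3.96, 3.66, 4.15 and 3.82 CPM in controls and 3.31, 3.43, 3.53, 2.51 and 2.78 in mutants, with no overlap. The share of all genes without overlap between these groups is not given, and mt-Tq too was picked by its p-value.

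With stress, the mRNA median of female mutants against controls was 0.051 with 9 of 12 positive. The isoleucine tRNA mt-Ti, with at most 31 counts in a female library, had an unadjusted p under 0.05 at 0.69 ± 0.32 (edgeR, adjusted p = 0.668), where 7.08% of all genes passed that level and 0.0243% the adjusted threshold. Its levels were 0.414, 0.681, 0.349, 1.002 and 0.559 CPM in stressed controls and 1.24, 1.44, 0.648, 0.769 and 0.915 in stressed mutants, which overlapped. Averaged over stress, the genotype median was −0.025 with 5 of 12 positive, and no member had an unadjusted p under 0.05, against 10.9% of all genes, of which 0.584% passed the adjusted threshold.

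The female interaction of stress and genotype, which shares all 4 groups with the comparisons above, had a positive value for each of the 12 mRNAs (median 0.11), both rRNAs (0.13 ± 0.14 and 0.13 ± 0.15) and the 8 tRNAs (median 0.47), beside a median of 0.0013 over all genes. The signs are not independent, since all members come from the same libraries and the abundant mRNAs move together. Genes with near-identical nuclear copies are among the 12 mRNAs. mt-Tm was at 0.65 ± 0.29 and mt-Tq at 0.45 ± 0.22 with an unadjusted p under 0.05 (edgeR, adjusted p = 0.9999 for both). Of all genes, 4% passed the unadjusted and 0% the adjusted threshold. mt-Co1 was at 0.094 ± 0.085 and mt-Nd6 at 0.21 ± 0.11 (edgeR, unadjusted p = 0.280 and 0.0719). Leaving out each library in turn gave mRNA medians between 0.076 and 0.15. The SD between replicates of the median log2 CPM of the mRNAs was 0.102, which is a spread of single libraries and not the error of this contrast.

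Between the sexes, the genotype difference averaged over stress was 0.61 ± 0.23 greater (female minus male) for mt-Tm (edgeR, unadjusted p = 0.00933, adjusted p = 0.471), the 1 member with an unadjusted p under 0.05, a level that 8.01% of all 17671 genes in this fit passed, with 0.00566% past the adjusted threshold. No member had an unadjusted p under 0.05 for the sex difference of the averaged stress effect, where 7.18% of all genes did and 0% passed the adjusted threshold. The same was so for the sex difference of the interaction, where the shares were 3.23% and 0%. The mRNA medians of these 3 contrasts were 0.011 for stress, 0.056 for genotype and 0.063 for the interaction.

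Ratios within a library are free of the total and were tested for 3 pairs. The first 2 were mt-Rnr2 over mt-Co1 for rRNA against mRNA, and mt-Nd6 over mt-Cytb for a light-strand against a heavy-strand gene. The third was mt-Cytb over mt-Nd1 for the far against the near end of the heavy-strand transcript. With the strand setting not given, whether mt-Nd6 counts hold reads of the opposite strand could not be checked. The second ratio is therefore one of gene counts, not of strands. Of 24 exact two-sided permutation tests, none had a p under 0.05, and the adjusted p lay between 0.844 and 0.964. The smallest p the design allows ran from 0.00433 (stress in male controls) to 0.0571 (3 against 4 mutant males), and was 0.00794 in females. After adjustment over 24, 1 such p alone could not pass 0.05, so the adjusted values cannot show that the ratios were equal. mt-Rnr2 counts were 24.6% ± 2.68 (SD, n = 6) to 26.7% ± 2.46 (SD, n = 4) of those of mt-Co1 over the male groups and 27.1% ± 1.73 to 29.9% ± 2.10 (SD, n = 5) over the female groups. mt-Cytb counts stood at 126% ± 3.02 (SD, n = 4) to 130% ± 8.98 (SD, n = 3) of those of mt-Nd1 over the male groups, and at 126% ± 4.09 to 131% ± 7.15 (SD, n = 5) over the female groups.

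mt-Nd6 counts, as a percentage of mt-Cytb counts, were 0.702, 1.14, 0.750, 0.803 and 0.735 in male control NS mice and ran from 0.683 to 1.02 with a median of 0.770 under CVS. In male mutants they were 0.884, 0.672 and 0.714 without stress and 0.822, 1.21, 0.768 and 0.792 with it. Control NS replicate 2, control CVS replicate 3 and mutant CVS replicate 2 stood above the others of their groups, and so 1 mouse in each of these groups had a higher ratio than its fellows. Female controls had 2.37, 2.11, 2.33, 2.11 and 2.22 without stress and 2.34, 1.84, 1.96, 1.997 and 2.24 with it. Female mutants had 2.29, 2.20, 2.29, 2.25 and 2.04 without stress and 2.15, 2.33, 2.23, 2.30 and 2.51 with it. All 20 female values lay above all 18 male ones, a gap that cannot be told apart from one between the F and Y series. The smallest p of the 24 tests was that of female mutants against controls under stress, at 2.31% ± 0.13 against 2.08% ± 0.21 (SD, n = 5 each; exact permutation p = 0.0952, adjusted p = 0.844). The same 3 male libraries had mt-Tq, a light-strand tRNA, at 3.18, 2.41 and 3.92 CPM, where the medians of their groups were 1.59, 1.43 and 2.25. Mutant NS replicate 1, highest of its group of 3 for the ratio at 0.884, had mt-Tq at 3.19 CPM. Other light-strand tRNAs were not high in all of these libraries. In the same 3 libraries mt-Tp was at 2.60, 2.59 and 4.19 CPM, beside group medians of 2.94, 3.22 and 3.12, and so was the lowest of its group in the first and the highest in the third. mt-Te was at 0.539, 0.401 and 1.06 CPM, beside group medians of 0.553, 0.515 and 0.581.

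**Figure D5:**
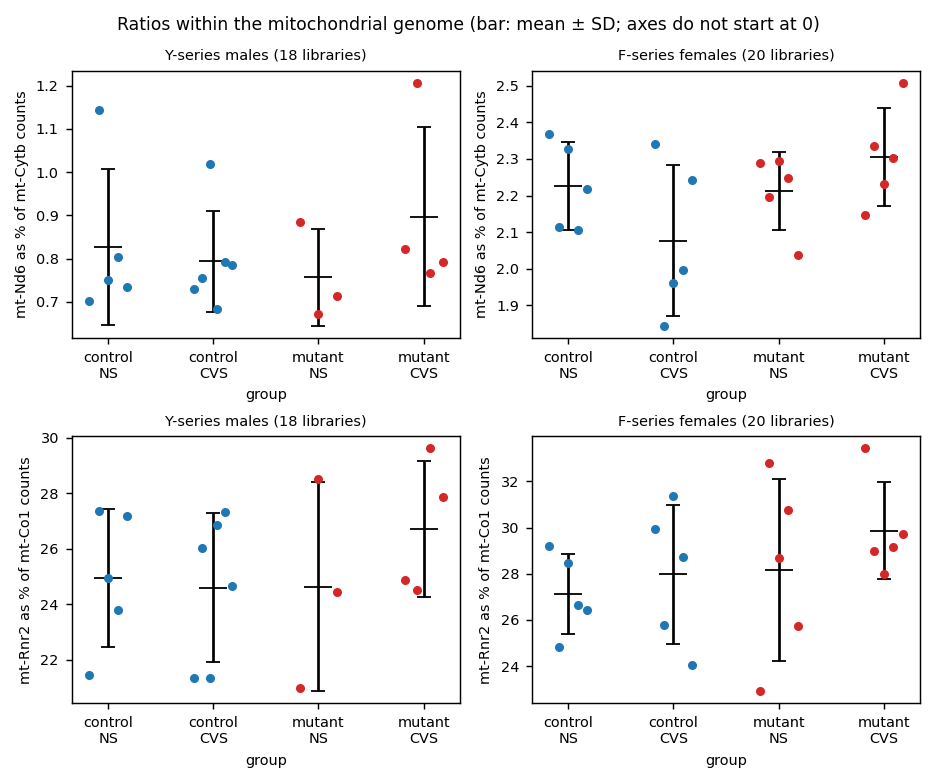
mt-Nd6 counts as a percentage of mt-Cytb counts (upper) and mt-Rnr2 counts as a percentage of mt-Co1 counts (lower) by group, in males (left) and females (right); points are libraries (blue, control; red, mutant), bars the mean ± SD, and axes do not start at 0. In males 1 library stands high for mt-Nd6 in control NS (1.14), control CVS (1.02) and mutant CVS (1.21), and the groups overlap in each panel.

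Nuclear genes that make, process and translate mitochondrial RNA showed no call either. The lists held 28 genes of mitochondrial DNA transcription and replication, 35 of RNA processing and decay (1 more, Prorp, was not matched in the table), 13 translation factors and 17 genes of import, protein quality and the nucleoid. All 93 were tested in both sexes, and none passed an adjusted p of 0.05 in any of the 17 comparisons. Over all genes tested, 0% to 0.584% passed it, depending on the comparison. Between 0 and 6 members of a list had an unadjusted p under 0.05 in a comparison, 6 of 35 being the count of the processing and decay list for male genotype and for female stress, each averaged, where 8.84% and 12.6% of all genes did. The medians of these lists over the averaged comparisons within a sex lay between −0.018 and 0.041.

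By the smallest p in each direction, male mutants averaged over stress had a higher value for the mitochondrial poly(A) polymerase Mtpap (0.14 ± 0.052, adjusted p = 0.385) and a lower one for Pde12, a phosphodiesterase that trims poly(A) tails (−0.14 ± 0.052, edgeR, adjusted p = 0.406). Pde12 was at −0.27 ± 0.079 without stress, with an interaction of 0.26 ± 0.10 (edgeR, adjusted p = 0.665 and 0.995). Its average thus rests mostly on the unstressed males. In the transcription list the male extremes were Nrf1, a nuclear activator of respiratory genes, at 0.10 ± 0.065, and Esrra, the estrogen-related receptor alpha, at −0.18 ± 0.059 (edgeR, adjusted p = 0.691 and 0.313). Under averaged stress, females had lower Tfam, the factor that packages and transcribes mitochondrial DNA (−0.12 ± 0.042, edgeR, adjusted p = 0.216). Pink1, a kinase of mitochondrial quality control, had the value closest to the threshold, 0.097 ± 0.024, and Tomm70a, an import receptor, was at −0.10 ± 0.029 (edgeR, adjusted p = 0.0699 and 0.106). For female genotype averaged over stress, Gabpa, another activator of respiratory genes, was at 0.16 ± 0.049 and the pseudouridine synthase Pus1 at −0.15 ± 0.055 (edgeR, adjusted p = 0.168 and 0.250). Pus1 was at −0.26 ± 0.078 without stress, with an interaction of 0.21 ± 0.11 (edgeR, adjusted p = 0.254 and 0.9999), so its average too rests mostly on unstressed mice.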

How the data were processed

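The authors deposited raw gene counts for 38 libraries. The submitters' processing notes name fastp 0.23.2, STAR 2.7.10b, featureCounts and the GRCm39 build. Not given in the sources used here: the annotation release, the strand setting and the handling of reads that match several places. Groups came from the labels. Counts were fitted with edgeR 4.0.16 (TMM, filterByExpr with a minimum count of 10 and a minimum total of 15, quasi-likelihood test) in 1 model of 4 groups per sex and 1 of 8 groups for sex differences. Benjamini-Hochberg adjustment ran over all genes tested, with a threshold of 0.05. The fit was run on simulated data with changes larger than the fitted differences of the abundant mRNAs here. Its outcome is not given, and it does not bear on power for small differences. SEs come from the fold change and the F statistic. Alternatives were RLE size factors, TMM without mitochondrial genes and the most abundant identifier, library totals, no filter on low counts, DESeq2 1.42.0, limma 3.58.1 voom, 2 groups alone and leaving out each library. The fit without 3 male libraries was chosen after seeing the data. Ratios within libraries were compared by exact permutation tests, adjusted over 24. Identity to copies was computed from GENCODE transcripts in windows of 50 bases. All members are accounted for. Levels by library are given for mt-Co1, mt-Cytb, mt-Nd6, mt-Rnr1 and mt-Rnr2 and, chosen after their values were seen, for members with an unadjusted p under 0.05. Of each nuclear list, at most the gene with the smallest p in each direction is named. Members and lists were chosen with earlier results of these data known. Libraries held a total count between 17644294 and 27509737. P-values measure the spread between these samples. The check of the targeted gene and of 1 marker list of the tissue is not reported here.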

Additional observations from a re-analysis of the deposited data

Results flagged for a closer look

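Of 77 groups of libraries tested for a member or ratio, 4 held a library far from the others, and chance flags about 1 in 20 groups. For mt-Rnr2, female control NS replicate 4 was lowest at 2991 CPM, where the others of its group lay between 3431 and 3588 CPM. For mt-Nd6 counts as a percentage of mt-Cytb counts, male control NS replicate 2 stood at 1.14, where the others lay between 0.702 and 0.803. In the same ratio, male control CVS replicate 3 stood at 1.02, where the others lay between 0.683 and 0.792, and male mutant CVS replicate 2 at 1.21, where the others lay between 0.768 and 0.822.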

How the results depend on the processing

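No paired analysis was possible because the titles give animal numbers, not replicate numbers shared between groups. Of the counts of members called, 119 of 120 under other settings and 304 of 304 with a library left out were the same as in the report. The exception was male genotype averaged over stress with no filter on low counts, where 1 member was called (mt-Tm, log2 difference −0.56), and the cause was not tested. Counts of members with an unadjusted p under 0.05 moved more with a library left out: 0 to 7 for female stress in controls, 1 to 5 for female stress in mutants, 0 to 6 for female genotype without stress, 0 to 3 for female genotype under stress, 0 to 4 for the female interaction and 1 to 4 for male genotype averaged. With a library left out, some ratio differences changed sign, and their log2 ranges follow. For mt-Rnr2 over mt-Co1 they were −0.076 to 0.017 (male stress in controls), −0.13 to 0.087 (male genotype without stress), −0.0020 to 0.093 (female stress in controls) and −0.012 to 0.12 (female genotype without stress). For mt-Nd6 over mt-Cytb they were −0.12 to 0.077 (male stress in controls), −0.23 to 0.0091 (male genotype without stress) and −0.028 to 0.021 (female genotype without stress). For mt-Cytb over mt-Nd1 they were −0.033 to 0.059 (male genotype without stress), −0.030 to 0.046 (female stress in mutants) and −0.033 to 0.011 (female genotype under stress). Calls over all genes moved more: male genotype averaged gave 20 calls, 108 with DESeq2 and 102 with no filter, female stress averaged 34, 234 and 214, female genotype averaged 96, 204 and 230, and female genotype without stress 21, 88 and 118. Leaving out 1 library gave 7 to 46 calls for male genotype averaged (7 without mutant NS replicate 3, 46 without mutant NS replicate 2). It gave 3 to 144 for female stress averaged (3 without control NS replicate 5 or mutant CVS replicate 4, 144 without mutant CVS replicate 5), 53 to 117 for female genotype averaged, and 6 to 47 for female genotype without stress (6 without mutant NS replicate 5, 47 without control NS replicate 1).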
